A study of Mus musculus with 2 samples.

Results

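The genes described here are the 10 that encode the enzymes of serine synthesis and of the folate one-carbon pathway, found by gene name among 55323 rows of an expression table of TgS1 cells. They are Phgdh, Psat1 and Psph for serine synthesis, Shmt2, Mthfd2, Mthfd2l, Mthfd1l and Aldh1l2 for the mitochondrial arm of the folate pathway, and Shmt1 and Mthfd1 for its cytosolic arm. Each name matched 1 row. The genes were chosen by their known function with the SCM and DMEM values of these same libraries in view, so the values below are a description and support no test. TgS1 is a mouse Schwann cell line, Schwann cells being the glia of peripheral nerve. Both groups carry the genotype TTR V30M tg, a transgene for a transthyretin variant that causes hereditary amyloid neuropathy. One group was kept long-term in DMEM, a standard basal medium, and the other long-term in a medium named SCM, which the labels do not spell out. The series compared both media for how transthyretin expression goes with the repair state of the Schwann cell. The labels name no clone, passage, promoter of the transgene or duration of culture.

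Cells make serine from the glycolytic intermediate 3-phosphoglycerate through PHGDH, PSAT1 and PSPH in turn. Serine hydroxymethyltransferases then pass a carbon from serine to tetrahydrofolate and leave glycine. The mitochondrial arm oxidises that carbon to formate, which leaves the organelle, and the cytosolic arm loads it back onto folate for purine, thymidylate and methionine synthesis. In proliferating cells the mitochondrial arm is the usual source of these units, and its genes and those of serine synthesis are textbook targets of the transcription factor ATF4, which is made when amino acids run short.

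There was 1 library per medium, so how far the values vary between cultures is not known and p-values are left out. The table held 29085791 reads in DMEM and 36666676 in SCM, recovered from the deposited FPKM values (fragments scaled to gene length and to the library total). Intervals are 95% exact intervals of the read counts, cover counting error only, and may be too narrow even for that because amplified reads are not independent molecules. Because RNA was taken in bulk, fewer cells that express a gene and less of its RNA per cell cannot be told apart. A gene counts as measured at 1 FPKM or more in 1 or both libraries, and as lower or higher when log2((FPKM in SCM + 1) / (FPKM in DMEM + 1)) reaches -1 or 1. The Schwann cell markers Sox10 and Cdh19 stood at 126 and 816 FPKM in DMEM and 113 and 835 FPKM in SCM. Of the 37 markers of fibroblasts, macrophages, endothelium, neurons, hepatocytes, muscle and pericytes, and astrocytes with a row, 32 were under 1 FPKM in both libraries. The highest of the others were the neuron marker Tubb3 (60.2 FPKM in DMEM and 45.0 FPKM in SCM) and the pericyte marker Pdgfrb (7.86 and 10.6 FPKM). The macrophage marker Cd68 had 1.34 and 1.45 FPKM, and the astrocyte marker Aldh1l1 1.13 and 1.69 FPKM. The summed fibroblast markers were at 0.924 FPKM in DMEM and 3.25 FPKM in SCM, nearly all of it Col1a2 (0.742 and 3.15 FPKM). The part of cells with any of these markers in the results was not tested. The human TTR transgene had 461 FPKM in DMEM and 5.84 FPKM in SCM.

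Serine and folate enzymes differed between the media by gene, from Mthfd2 at 14.7-fold lower in SCM to Mthfd2l at 1.21-fold higher. Of the 10 genes 9 were measured, and 5 of these were at least 2-fold lower in SCM (Mthfd2, Psat1, Aldh1l2, Shmt2 and Mthfd1l), 0 were higher and 4 lay within 2-fold. Among all 12334 measured rows, 2.8% were lower and 3.1% higher by the same rule, and among the 10081 protein-coding rows 1.44% and 2.48%. The media contrast had a part in choosing the genes, so nothing is read from that comparison. The median log2 ratio of the 9 genes was -1.16, against -0.03 for all measured rows. Mthfd1l at -1.16 was the gene just inside the limit and Phgdh at -0.81 the one just outside. Summed over the 10 genes, the level was 193 FPKM in DMEM and 65.3 FPKM in SCM.

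**Figure D1:**
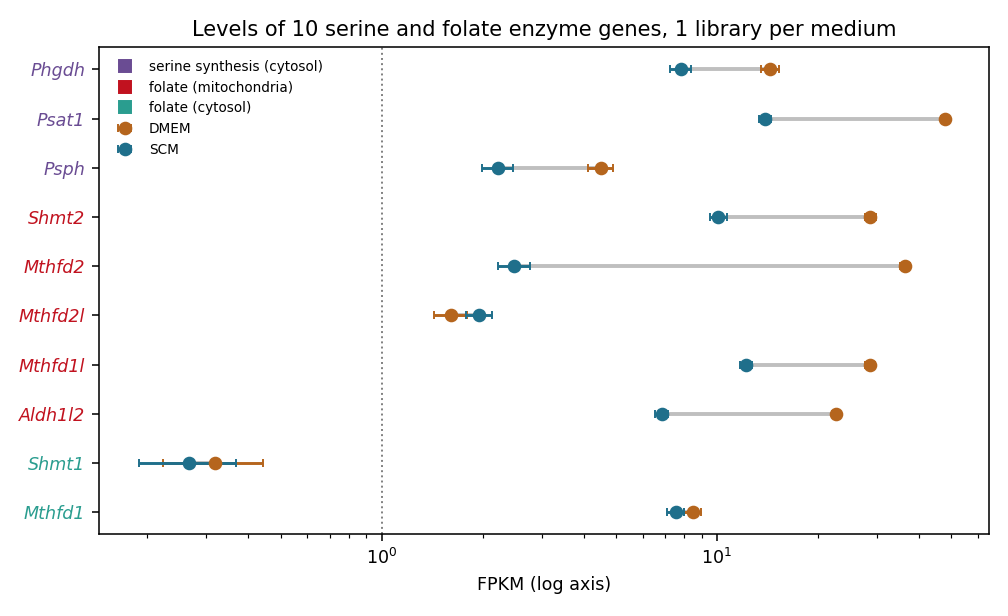
FPKM of each of the 10 genes (log axis) in the DMEM and SCM library, with 95% exact counting intervals; gene names are coloured by role and the dotted line marks 1 FPKM. Mthfd2 has the widest gap, from 36.4 to 2.49 FPKM, Mthfd2l is the gene with the higher point in SCM, and the Shmt1 intervals overlap.

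Serine synthesis genes all had the higher level in DMEM, and Psat1 differed most. Phgdh (ENSMUSG00000053398; chromosome 3, 98313170 to 98339990 on GRCm38, minus strand) encodes phosphoglycerate dehydrogenase, the entry step. It had 14.4 FPKM in DMEM, from 1041 reads, against 7.79 FPKM in SCM, from 710 reads, or 1.85-fold less (interval 1.68 to 2.04). Psat1 (ENSMUSG00000024640; chromosome 19, 15904678 to 15947337, minus strand) encodes the aminotransferase of the middle step, which takes its nitrogen from glutamate. It had 47.9 FPKM in DMEM, from 5922 reads, against 13.9 FPKM in SCM, from 2168 reads, 3.44-fold lower (3.28 to 3.62). Psat1 was the most abundant of the 10 genes in both libraries. Psph (ENSMUSG00000029446; chromosome 5, 129765558 to 129787449, minus strand), the phosphatase of the last step, had 4.50 FPKM (566 reads) and 2.22 FPKM (352 reads). That is 2.03-fold lower in plain FPKM (1.77 to 2.32), but its log2 ratio of -0.77 with the pseudocount of 1 FPKM stays within 2-fold.

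The genes of the 3 steps did not keep their proportions. Psat1 exceeded Phgdh 3.32-fold in DMEM (3.11 to 3.55) and 1.78-fold in SCM (1.64 to 1.95). Phgdh exceeded Psph 3.20-fold in DMEM (2.89 to 3.55) and 3.51-fold in SCM (3.09 to 4.002), intervals that overlap. Psat1 thus lost ground to Phgdh in SCM, and a change in the proportion of Phgdh to Psph was not detectable at this depth. Psph shares 452 exon bases, 10.4% of its exons, with the chaperonin gene Cct6a on the opposite strand, which had 83.1 and 65.5 FPKM in DMEM and SCM. Whether the counting used strand is not stated, so the part of Cct6a reads in the Psph level was not tested.

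Of the 5 mitochondrial folate genes 4 were at least 2-fold lower in SCM, and Mthfd2l was not. Shmt2 (ENSMUSG00000025403; chromosome 10, 127517123 to 127522444, minus strand), the serine hydroxymethyltransferase that feeds the arm, had 28.7 FPKM in DMEM, from 2591 reads, against 10.1 FPKM in SCM, from 1149 reads, 2.84-fold lower (2.65 to 3.05). Mthfd2 (ENSMUSG00000005667; chromosome 6, 83305691 to 83325908, minus strand) encodes the dehydrogenase and cyclohydrolase of the next steps, an enzyme known for embryonic and tumour tissue. It had 36.4 FPKM in DMEM, from 3696 reads, against 2.49 FPKM in SCM, from 318 reads, 14.7-fold lower (13.1 to 16.5). Only 6.83% of its DMEM level was seen in SCM. Its log2 ratio of -3.42 was the lowest of the 10081 measured protein-coding rows, and among all measured rows only the human TTR transgene was lower. These ranks hold on the scale with a pseudocount of 1 FPKM. In plain FPKM, Chac1, which has few reads in SCM, was 33.9-fold lower (21.2 to 57.7), more than Mthfd2. Mthfd2 stood at rank 2 of the 10 genes in DMEM and at rank 7 in SCM.

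Mthfd1l (ENSMUSG00000040675; chromosome 10, 3973118 to 4167081, plus strand) encodes the synthetase that releases formate. It had 28.6 FPKM in DMEM, from 3689 reads, against 12.2 FPKM in SCM, from 1985 reads, 2.34-fold lower (2.22 to 2.48). Aldh1l2 (ENSMUSG00000020256; chromosome 10, 83487450 to 83534140, minus strand) encodes the dehydrogenase that burns the same formyl group to carbon dioxide and makes NADPH. It had 22.6 FPKM in DMEM, from 4938 reads, against 6.84 FPKM in SCM, from 1881 reads, 3.31-fold lower (3.14 to 3.49). At the RNA level, Mthfd1l thus exceeded Aldh1l2 1.26-fold in DMEM (1.21 to 1.32) and 1.79-fold in SCM (1.68 to 1.90). Use of the 2 branches was not measured. Aldh1l2 shares 14.1% of its exon bases with the opposite-strand gene D10Wsu102e, at 0.638 and 0.544 FPKM. At a length of 123179 bases that gene had 2285 reads in DMEM and 2456 in SCM, and their part in the Aldh1l2 level was not tested.

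Mthfd2l (ENSMUSG00000029376; chromosome 5, 90931117 to 91021368, plus strand) encodes the second mitochondrial dehydrogenase and cyclohydrolase, a paralogue of Mthfd2 known from adult tissues. It had 1.61 FPKM in DMEM, from 311 reads, against 1.95 FPKM in SCM, from 476 reads, 1.21-fold higher (1.05 to 1.41). Mthfd2l was the 1 measured gene of the set with a log2 ratio above 0, at 0.18, and it lay well within 2-fold. With a high Mthfd2 in DMEM and a low one in SCM, the paralogues stood far apart in one library and close in the other. Mthfd2 exceeded Mthfd2l 22.6-fold in DMEM (20.2 to 25.5) and 1.27-fold in SCM (1.10 to 1.47).

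**Figure D2:**
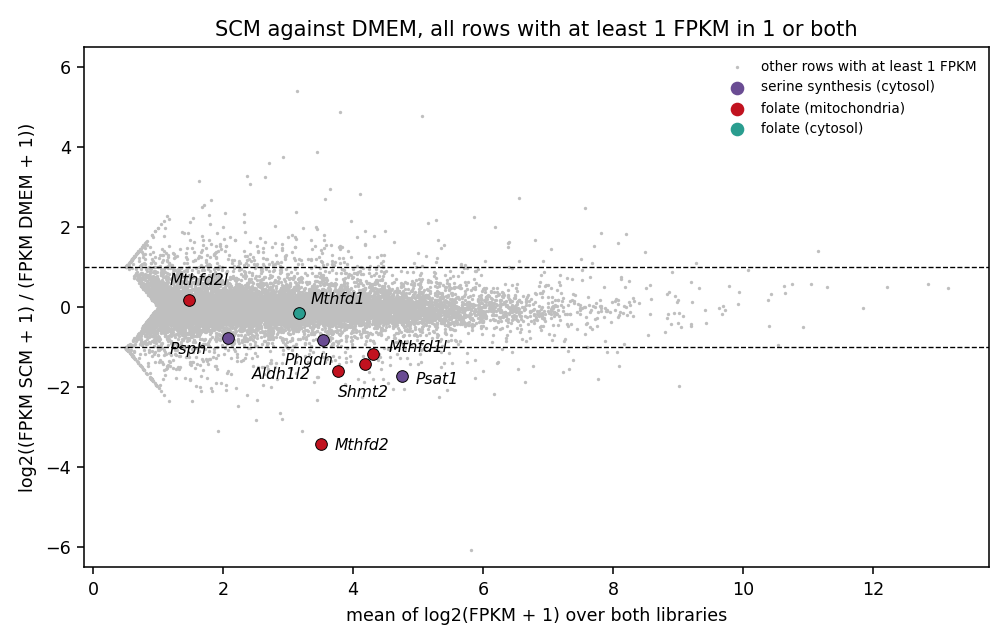
Log2 ratio of SCM to DMEM on the scale of log2(FPKM + 1) against the mean level, for the 12334 measured rows; dashed lines mark 2-fold and coloured points are the 9 measured enzymes. Mthfd2 lies at -3.42, below all other protein-coding rows, and Mthfd2l at 0.18 and Mthfd1 at -0.15 lie in the body of the plot.

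Of the cytosolic folate genes, Mthfd1 differed little between media and Shmt1 had too few reads to tell. Mthfd1 (ENSMUSG00000021048; chromosome 12, 76255298 to 76319803, plus strand) encodes the cytosolic enzyme that carries the dehydrogenase, cyclohydrolase and synthetase activities in 1 chain. It had 8.46 FPKM in DMEM, from 1093 reads, against 7.53 FPKM in SCM, from 1227 reads, 1.12-fold lower (1.03 to 1.22). Shmt1 (ENSMUSG00000020534; chromosome 11, 60788104 to 60811718, minus strand), the cytosolic hydroxymethyltransferase, was not measured by the rule above. It had 0.319 FPKM in DMEM, from 36 reads, against 0.267 FPKM in SCM, from 38 reads, a ratio of 0.837 with an interval that holds 1 (0.517 to 1.36). The reads of Shmt1 lie above the 3-read floor, which is 0.0266 FPKM in DMEM and 0.0211 FPKM in SCM at its length. Shmt1 also shares 184 exon bases with the opposite-strand gene Smcr8, at 9.73 and 8.14 FPKM, and the part of Smcr8 reads in the Shmt1 level was not tested.

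The ratios between mitochondrial and cytosolic genes differed between the media, and not all in 1 direction. Mthfd1l exceeded Mthfd1 3.38-fold in DMEM (3.16 to 3.62) and 1.62-fold in SCM (1.51 to 1.74). Shmt2 exceeded Shmt1 89.9-fold in DMEM (64.8 to 129) and 37.8-fold in SCM (27.3 to 53.6), resting on few Shmt1 reads. Mthfd2 exceeded Mthfd1 4.31-fold in DMEM (4.03 to 4.61), and in SCM the order turned, with Mthfd1 3.03-fold above Mthfd2 (2.68 to 3.44). Against Mthfd2l, Mthfd1 stood lower in SCM, 5.26-fold above it in DMEM (4.63 to 5.98) and 3.86-fold in SCM (3.47 to 4.30). The 5 mitochondrial genes made up 61.0% of the summed FPKM of the 10 genes in DMEM and 51.4% in SCM, the 2 cytosolic folate genes 4.54% and 12.0%, and the 3 serine synthesis genes 34.5% and 36.6%. Within the 7 folate genes alone, the mitochondrial share was 93.1% in DMEM and 81.1% in SCM.

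**Figure D3:**
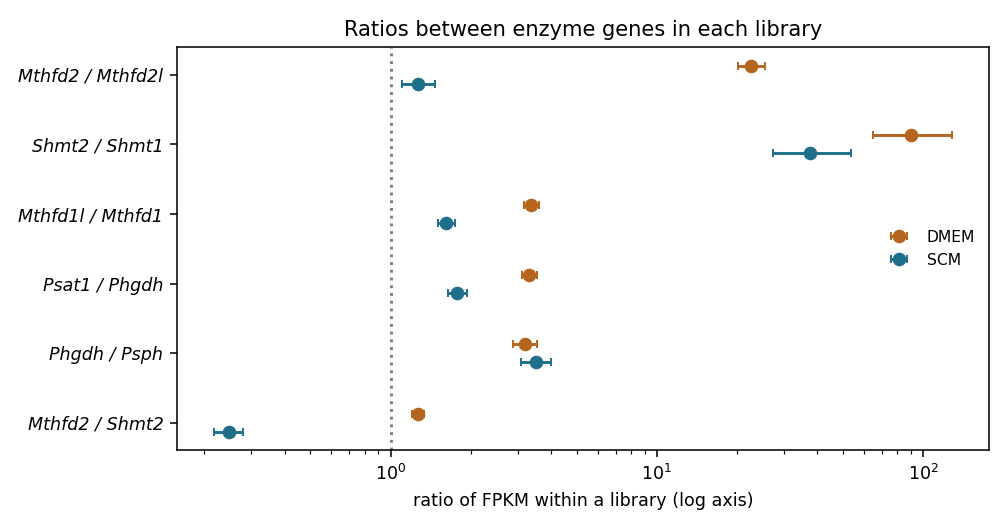
Ratio of FPKM between pairs of enzyme genes within each library (log axis), with 95% exact counting intervals; the dotted line marks equal levels. Mthfd2 over Mthfd2l runs from 22.6 in DMEM to 1.27 in SCM, Mthfd2 over Shmt2 crosses 1, and the intervals of Phgdh over Psph overlap.

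**Figure D4:**
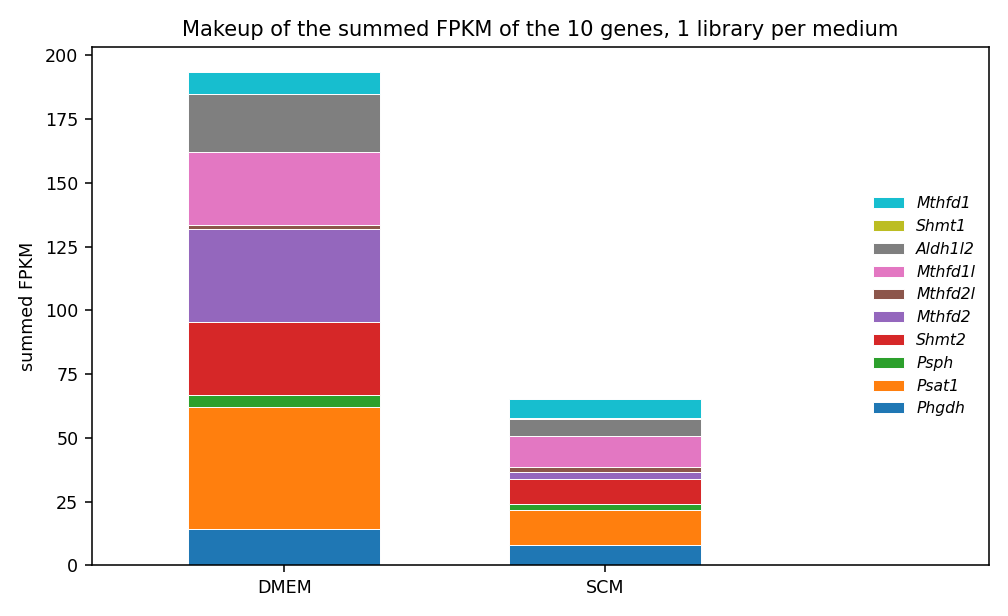
Summed FPKM of the 10 genes in each library, stacked by gene on a linear axis from 0. The sum is 193 FPKM in DMEM and 65.3 FPKM in SCM, and the Mthfd2 block is nearly gone in SCM while the Mthfd1 block keeps its height.

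In DMEM the order of levels was Psat1, Mthfd2, Shmt2, Mthfd1l, Aldh1l2, Phgdh, Mthfd1, Psph, Mthfd2l and Shmt1. Shmt2 and Mthfd1l did not differ beyond counting error there, with a ratio of 1.002 (0.952 to 1.05). In SCM the order was Psat1, Mthfd1l, Shmt2, Phgdh, Mthfd1, Aldh1l2, Mthfd2, Psph, Mthfd2l and Shmt1. Phgdh and Mthfd1 did not differ beyond counting error in SCM, with Mthfd1 at 0.967 of Phgdh (0.881 to 1.06), whereas in DMEM Mthfd1 stood at 0.588 of Phgdh (0.539 to 0.640). The counting intervals of the SCM levels also overlapped between Mthfd2 (2.22 to 2.78 FPKM) and Psph (1.99 to 2.46 FPKM), and between Psph and Mthfd2l (1.78 to 2.14 FPKM). Mthfd2 went from 1.27-fold above Shmt2 in DMEM (1.21 to 1.34) to 4.05-fold below it in SCM (3.58 to 4.603). These are orders within 1 library each, and how they vary between cultures of the same medium was not measured. The orders and the ratios between genes also rest on the gene lengths used for FPKM. The lengths of the transcripts that the cells expressed were not measured.

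The bases before the start sites of Mthfd2 and Shmt2 and of their paralogues Mthfd2l and Shmt1 are shown so that each pair can be set side by side. Mthfd2 and Shmt2 were lower in SCM, Mthfd2l lay within 2-fold and Shmt1 was not measured. They are taken from RefSeq on GRCm38.p6, from up to 250 bases before the annotated start, and leave out stretches that an annotated exon covers. Capitals mark matches on either strand to the core of the C/EBP-ATF response element bound by ATF4 dimers (TGATGNAA), the E-box bound by MYC (CACGTG), the core of the antioxidant response element bound by NRF2 (TGANNNNGC), the GC box (GGGCGG) and the CCAAT box (CCAAT), and adjoining or overlapping matches run together.
Mthfd2 (chr6:83317607-83317854, minus strand): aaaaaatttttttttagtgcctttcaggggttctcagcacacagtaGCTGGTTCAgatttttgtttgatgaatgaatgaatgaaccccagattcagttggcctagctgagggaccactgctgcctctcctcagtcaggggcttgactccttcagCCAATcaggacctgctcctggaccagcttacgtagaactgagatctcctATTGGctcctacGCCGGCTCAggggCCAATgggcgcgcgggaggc
Mthfd2l (chr5:90930946-90931116, plus strand): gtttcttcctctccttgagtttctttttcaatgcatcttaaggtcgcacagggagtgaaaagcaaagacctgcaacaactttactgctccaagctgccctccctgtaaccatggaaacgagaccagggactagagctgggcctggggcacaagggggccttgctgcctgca
Shmt2 (chr10:127522445-127522694, minus strand): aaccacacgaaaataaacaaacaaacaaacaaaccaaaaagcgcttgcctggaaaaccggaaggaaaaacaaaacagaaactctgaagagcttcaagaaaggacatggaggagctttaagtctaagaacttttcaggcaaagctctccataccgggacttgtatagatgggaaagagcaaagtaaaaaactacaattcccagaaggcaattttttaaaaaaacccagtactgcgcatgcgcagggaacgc
Shmt1 (chr11:60811266-60811466, minus strand): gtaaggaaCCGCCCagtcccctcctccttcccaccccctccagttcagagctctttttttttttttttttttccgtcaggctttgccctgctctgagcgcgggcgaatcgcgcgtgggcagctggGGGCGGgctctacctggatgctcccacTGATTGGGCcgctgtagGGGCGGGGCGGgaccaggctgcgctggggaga

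Promoter windows were found for 9 of the 10 genes, with 2 start sites for Psat1. None of the 10 windows of 250 bases held TGATGNAA, which 3.45% of all 32851 windows held, or CACGTG, which 6.02% held. TGANNNNGC, short enough to be common, was in the windows of Mthfd2, Phgdh, Psat1 and Shmt1 and in 35.2% of all windows. Mthfd2 had 3 CCAAT boxes, at 96, 47 and 22 bases before the start, and 2.79% of all windows had 3 or more. CCAAT was found before 6 of the 9 genes and in 33.8% of all windows, and GGGCGG before 5 of the 9 genes and in 32.7% of all windows. Shmt2, lower in SCM, and Mthfd2l, within 2-fold, both had none of the 5 motifs. Shmt1, under 1 FPKM in both libraries, had 4 GC boxes. The part of any motif in the levels was not tested. CCAAT and GGGCGG were added to the search after the sequences had been seen. A match is a match of letters in these windows only, and sequence further upstream or within introns was not searched.

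Around the 10 genes, the measured genes of other folate handling stayed within 2-fold. Of 17 genes listed for other folate handling 12 were measured, 0 were lower and 0 higher, with a median log2 ratio of -0.19 and a range from -0.31 to 0.77. The upper end was Gphn, the gephyrin gene, which is not a folate enzyme or carrier, and the next highest was Ggh at 0.35. Of the 12 genes 8 had a log2 ratio below 0, and near 1 FPKM the pseudocount shrinks such ratios. Over all measured rows 2.8% were lower and 3.1% higher. Counts of 0 among 10 or 12 genes lie near those shares, and nothing is read from them. Tyms, the thymidylate synthase gene, had 0.926 FPKM in DMEM and 0.838 FPKM in SCM. The mitochondrial folate carrier gene Slc25a32 had 8.25 and 7.83 FPKM. The term of one-carbon metabolic process in the table's own annotation, looked up after the values were seen, held 10 further measured genes, of which 0 were lower and 0 higher, with a median of 0.01.

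The glycine cleavage system is the other mitochondrial source of folate-bound carbon. Of the list of glycine cleavage genes and serine carriers, 6 of 7 genes were measured, with 0 lower, 0 higher and a median of 0.06, the serine carriers Sfxn1, Sfxn2 and Sfxn3 among them. Amt had 5.08 FPKM in DMEM and 6.40 FPKM in SCM and Gcsh 7.45 and 7.38 FPKM, while Gldc, the decarboxylase of the complex, had 18 reads in DMEM and 8 in SCM. Gldc, under 1 FPKM in both libraries, was 2.84-fold lower in plain FPKM (1.17 to 7.54). Over all measured rows 2.8% were lower and 3.1% higher. The counts of 0 in the lists of this paragraph lie near those shares, and nothing is read from them. Among the measured genes that use one-carbon units none passed 2-fold. De novo purine synthesis had 8 of 8 genes measured, 0 lower, 0 higher and a median of 0.04. The methionine cycle and transsulfuration list had 8 of 14 genes measured, 0 lower, 0 higher and a median of -0.17. In it Mat2a, which makes S-adenosylmethionine, had 29.6 and 23.1 FPKM, Cbs, the first enzyme of transsulfuration, stood under 1 FPKM in both libraries, and Cth, the enzyme after it, had 44 reads in DMEM and 7 in SCM, 7.92-fold lower in plain FPKM (3.54 to 20.9) but under 1 FPKM in both. Lower glycolysis, which supplies 3-phosphoglycerate, had 6 of 7 genes measured, 0 lower, 0 higher and a median of -0.16.

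Of 8 genes that bring serine and glycine into the cell, 3 were measured, 2 of these were lower in SCM and 0 higher. Over all measured rows 2.8% were lower and 3.1% higher, and the list was chosen with earlier results of these data known. The other 5 uptake genes were under 1 FPKM in both libraries, 3 of them at 0 in both. Among them Slc1a5, the ASCT2 gene, had 0.363 and 0.386 FPKM in DMEM and SCM. Slc38a2, the neutral amino acid transporter SNAT2, had 35.96 FPKM in DMEM and 9.70 FPKM in SCM, 3.71-fold lower (3.56 to 3.86). Slc6a9, the glycine transporter GLYT1, had 2.34 and 0.297 FPKM, 7.88-fold lower (5.93 to 10.6). Slc1a4, the serine and alanine transporter ASCT1, had 1.39 and 0.458 FPKM, 3.04-fold lower in plain FPKM (2.27 to 4.11), with a log2 ratio of -0.71 that stays within 2-fold. Of 18 genes of serine and glycine use and breakdown 11 were measured, with 1 lower, 0 higher and a median of 0.14. The lower gene was Serinc5, a membrane protein named for serine incorporation into lipids, at 128 and 58.5 FPKM.

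**Figure D5:**
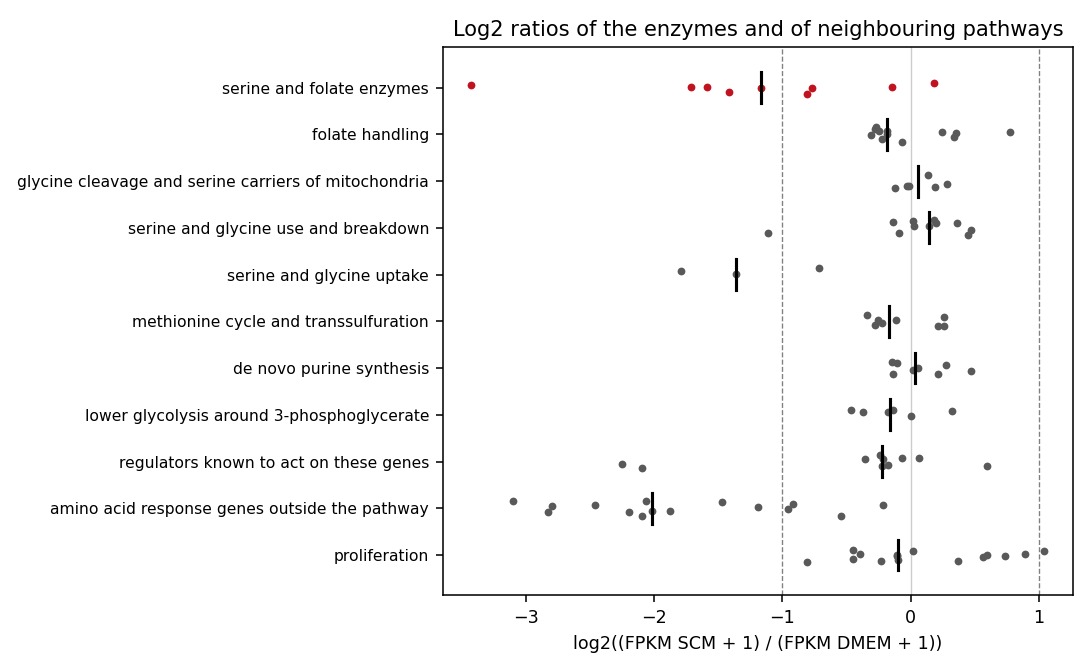
Log2 ratio of SCM to DMEM on the scale of log2(FPKM + 1) for each measured gene (points) of the serine and folate enzymes and of 10 neighbouring lists, with the median of each list as a bar and dashed lines at 2-fold. The enzymes, the uptake genes and the amino acid response genes have medians of -1.16, -1.36 and -2.02, and the other lists have medians between -0.22 and 0.14.

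Among regulators known to act on these genes, Atf4 was lower with them. Atf4 had 86.1 FPKM in DMEM, from 5903 reads, against 17.3 FPKM in SCM, from 1496 reads, 4.97-fold lower (4.70 to 5.27). Trib3, a target of ATF4 that restrains it, had 5.53 and 0.526 FPKM. The remaining 8 measured regulators lay within 2-fold, among them Myc at 4.75 and 3.49 FPKM and Nfe2l2, the NRF2 gene, at 23.9 and 36.7 FPKM. The 4 kinases that halt translation to favour ATF4 synthesis (Eif2ak1, Eif2ak2, Eif2ak3 and Eif2ak4) were all within 2-fold. These are RNA levels, and protein and activity of the regulators were not measured. The part of ATF4 in the enzyme levels was not tested. Of 20 amino acid response genes outside the serine and folate pathways 15 were measured, 11 of these were lower and 0 higher, with a median of -2.02. The 4 lowest were Chac1, which breaks down glutathione, at 10.2 and 0.300 FPKM in DMEM and SCM, the secreted glycoprotein gene Stc2 at 14.2 and 1.14 FPKM, the proline synthesis gene Aldh18a1 at 18.9 and 1.86 FPKM, and the arginine and lysine transporter gene Slc7a1 at 9.97 and 0.991 FPKM. That list shares Trib3 and Atf3 with the regulators. Among the protein-coding genes of at least 5 FPKM with log2 ratios nearest to that of Mthfd2 over the 2 libraries were Chac1 at -3.10 and Stc2 at -2.83.

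Proliferation genes, which often go with one-carbon metabolism, went both ways in these libraries. Of 20 such genes 15 were measured, with 0 lower, 1 higher and a median of -0.10, beside 2.8% lower and 3.1% higher over all measured rows. The higher gene was Mki67, at 1.67 FPKM in DMEM and 4.50 FPKM in SCM. Most of the proliferation genes were of low level, where the pseudocount shrinks a log2 ratio. The plain FPKM ratios of genes picked after their values were seen are therefore given as well. The mitosis genes Cdk1, at 1.23 FPKM in DMEM and 2.697 FPKM in SCM, and Top2a, at 2.697 and 5.86 FPKM, were 2.199-fold (1.85 to 2.63) and 2.17-fold (1.99 to 2.37) higher in SCM. Kif11 was 2.06-fold (1.75 to 2.44) and Ccnb2 2.32-fold (1.45 to 3.81) higher, and Ccna2, Ccnb1 and Plk1, all under 1 FPKM, were 3.33-fold, 2.87-fold and 3.17-fold higher. The replication gene Gins2, at 2.88 and 1.22 FPKM, was 2.36-fold lower (1.97 to 2.84), and the replicative helicase genes Mcm2 and Mcm3 were 1.54-fold (1.33 to 1.78) and 1.52-fold (1.31 to 1.77) lower. The part of growth rate, passage or medium composition in any of these differences was not tested, and with 1 library per medium the medium and the culture cannot be told apart.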

How the data were processed

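RNA of TgS1 cells (1 DMEM and 1 SCM library) was sequenced after SMARTer stranded library preparation, per the labels' protocols. The authors deposited FPKM values per gene. STAR 2.7.9a, featureCounts 2.0.1, cutadapt 3.1, Trimmomatic 0.39 and Trim Galore, with GRCm38.p6 and mm10, are listed in the submitters' processing notes, without roles, order or strand setting. The column names carry the numbers 1 (DMEM) and 3 (SCM).

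FPKM multiplied by gene length gave whole reads for 100% of rows (tolerance 0.01). Measured rows had at least 1 FPKM in 1 or both libraries, the pseudocount was 1 FPKM, and folds are ratios of FPKM without it, with 95% Clopper-Pearson intervals. With 1 library per medium no test was run and no count model fitted. The steps were tested on simulated reads. None of the 10 genes lay at its GRCm38 position in the table though all 10 had the same span, so coordinates were taken from GENCODE M21 by gene identifier. Promoter windows come from RefSeq.

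The genes, lists and motifs were chosen with earlier results of these data known. Beside the 10 genes, up to 4 genes past 2-fold per list were named, with a fixed set (among them Tyms, Slc25a32, Gldc, Amt, Gcsh, Mat2a, Cbs, Cth, Atf4, Myc and Nfe2l2) and the 3 nearest patterns, some of which are not reported here; Slc1a4, Slc1a5, the Sfxn and Eif2ak genes and the proliferation genes beside Mki67 were added after their values were seen. Gcat and Ddit3 each matched 2 rows and were left out. Alternatives changed the pseudocount, filter, scaling, unit, fold and use of the interval. Python 3.11.15 with pandas 2.3.3, NumPy 2.4.6 and SciPy 1.17.1 was used.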

Additional observations from a re-analysis of the deposited data

How the results depend on the processing

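The number of enzymes at least 2-fold lower in SCM stayed at 5 under both other pseudocounts (0.1 and 3 FPKM), both other filters, all 3 other scalings, the use of counting intervals and protein-coding rows alone. It was 6 in TPM, where Psph had a log2 ratio of -1.004, and 7 at a fold of 1.5. Without the enzymes whose exons overlap another row, a choice made after seeing the data, 3 of 5 were lower (Mthfd2, Psat1 and Mthfd1l). None was higher under any of these 12 alternatives, and 0 of 114 values of single enzymes changed sign. The median log2 ratio of the enzymes, -1.16, was -1.06 with a pseudocount of 3 FPKM, -0.99 with no filter, which brings in Shmt1, and -1.42 with a filter of 5 FPKM, which leaves out Psph and Mthfd2l. The Mthfd2 log2 ratio ran from -3.82 to -2.85. The mitochondrial share of the summed FPKM was 62.2% in DMEM with the filter of 5 FPKM, and 51.7% in DMEM and 43.4% in SCM without the overlapping enzymes. Counts over all rows depended more on the setting: with pseudocounts of 0.1 and 3 FPKM, 625 and 131 rows were lower and 681 and 148 higher, in TPM 1145 and 1011, with the filter of 5 FPKM 165 and 210, and at a fold of 1.5 928 and 974. No paired analysis was possible because there is 1 library per medium, and for the same reason no replicate could be left out. Pseudocounts and fold limits do not apply to shares of FPKM. Depth limits, among others, Shmt1, Gldc, Cth and Ccnb1, which rest on under 50 reads per library. It also limits the folds of Chac1, Trib3 and Pycr1, which had 18, 41 and 15 reads in SCM.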
